A study of Mus musculus with 99 samples.

Results

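The genes described here are the nuclear genes of mitochondrial complex I and its assembly whose platform symbol begins with Nduf. The rule found 38 genes among the 11725 that the array names, read by 64 probe sets, and the brightest probe set by mean signal stood for each gene. All 38 passed the filter on dim genes, which 7513 genes passed in all. They comprise 6 core subunits, 9 accessory subunits of the matrix arm, 16 accessory subunits of the membrane arm, the acyl carrier protein Ndufab1, Ndufa4, 4 assembly factors and the transcribed pseudogene Ndufs5-ps.

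The study measured heart RNA of male mice fed chow, with 1 Affymetrix HT_MG-430A array for each of 99 strains. The protocol gives an age of 16 weeks for all, while the age label runs from 16 to 113 weeks. The 11 BXH, 30 BXD, 15 AXB and 13 BXA strains are recombinant inbred, each a homozygous mosaic of C57BL/6J with C3H/HeJ (BXH), DBA/2J (BXD) or A/J (AXB and BXA). The other arrays are the wild-derived strain CAST/EiJ, the strain B6cC3-1/KccJ and 28 classical inbred strains, the 4 parents among them. Arrays of near-isogenic strains were averaged, namely the 3 AXB19 lines and BXD24/TyJ with its Cep290 rd16 mutant, which left 29 BXD, 13 AXB and 13 BXA families, and BXD29-Tlr4<lps-2J>/J stood as a BXD strain. Each strain was read once, so the difference between strains and the error of an array cannot be told apart. The p-values set a mean difference between groups against the spread within groups, which holds both. Values are log2 signals, a difference of 1 is a 2-fold change, and the signals of different probe sets are not comparable.

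Complex I, NADH:ubiquinone oxidoreductase, is the entry point of most electrons into the respiratory chain. Its matrix arm takes electrons from NADH and passes them along iron-sulphur clusters to ubiquinone, and its membrane arm pumps protons, with the membrane core encoded by mitochondrial DNA. Accessory subunits surround and stabilise the core, and assembly factors build the arms but leave the finished enzyme. Cardiomyocytes are densely packed with mitochondria and depend on oxidative phosphorylation for contraction.

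The promoters of nuclear respiratory genes are known for sites of the factors NRF1, the ETS factor NRF2 (GABP) and YY1. RefSeq promoter windows, from 250 bases before to 50 after a gene's start, were given for 34 of the 38 genes as 36 windows (build GRCm38.p6). They were read on both strands for the letters GCGCANGCG (NRF1), CCGGAAG (ETS), AAGATGGCG (YY1) and TCAAGGTCA (the oestrogen-related receptor ERR alpha). The NRF1 letters occurred in 10 of 36 windows (27.8%), against 6.25% of all 32851 windows. They lay in 9 of the 34 genes, since overlapping windows of Ndufa5 hold the same site. The YY1 letters occurred in 5 of 36 (13.9%), against 1.40% of all windows, in each case 22 to 35 bases after the start. The ETS letters occurred in 4 of 36 (11.1%), against 8.86%, and the ERR alpha letters in 0 of 36, against 0.423%. The Sp1 letters GGGCGG occurred in 47.2%, against 35.7%, and the TATA box letters TATAAA in 13.9%, against 13.6%, with their overlap with the other motifs not counted. The Nduf windows had a median GC content of 58.7%, against 52.7% over all windows, and the part of GC content in these shares was not tested. No match of the NRF1, ETS or YY1 letters overlapped a match of another of these 3, although the NRF1 letters can match both strands of one site, as in Ndufa11, Ndufaf4 and Ndufaf5. The stretches below are those of genes whose values carry the results that follow, with the matched letters in capitals. Ndufs3 and Ndufaf1 hold ETS letters, Ndufa5 and Ndufa8 NRF1 letters, and Ndufs4 and Ndufs7 YY1 letters. A match is a description of the letters, not evidence of binding.
Ndufs3, chr2:90904732-90904758, minus strand: ccgcgtccgcCCGGAAGaagagtcact
Ndufaf1, chr2:119662836-119662862, minus strand: gggaccacaaCCGGAAGcgtggcgaac
Ndufa5, chr6:24527698-24527726, minus strand: tgtgtgagctGCGCAGGCGcaaatctacc
Ndufa8, chr2:36049329-36049357, minus strand: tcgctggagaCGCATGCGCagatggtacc
Ndufs4, chr13:114388045-114388069, minus strand: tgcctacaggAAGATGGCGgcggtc
Ndufs7, chr10:80249463-80249491, plus strand: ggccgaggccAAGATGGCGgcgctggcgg

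On 44 of 99 arrays a marker list of another organ (airway, liver, skeletal muscle, squamous epithelium, thymus or thyroid) lay more than 2 log2 units above its median over the arrays. These were 1 of 1 CAST/EiJ, 8 of 11 BXH, 11 of 30 BXD, 13 of 28 AXB and BXA and 11 of 28 classical arrays. The mean of 8 cardiomyocyte markers was 12.72 on the CAST/EiJ array and 12.75 to 12.96 on those of the panels and classical strains. In bulk tissue, fewer cells of a type and less RNA per cell cannot be told apart. The array's Gapdh controls read the 3′ and the 5′ end of the transcript, and their difference reflects how intact and how fully labelled the RNA was. It averaged -0.31 ± 0.11 in BXH (SD, n = 11), -0.22 ± 0.085 in BXD (n = 30) and -0.31 ± 0.082 in AXB and BXA (n = 28).

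Subunit transcripts varied less between the 28 classical strains than most tested genes, but not less than those of complexes III to V. Their SD had a median of 0.10 log2 units over 33 genes (Ndufa4 counted among them), against 0.23 over all 7513 tested genes and 0.14 over the 427 genes with a mean signal of 10 or more. The medians were 0.14 for complex II, 0.078 for complex III, 0.076 for complex IV and 0.076 for complex V. The SD of all 33 subunits was below the median of tested genes, and 28 of them lay in the lowest 5%. Bright probe sets have small SDs in general, so each gene was also set beside the genes within 0.5 log2 units of its own mean signal. There 26 of 33 subunits had an SD below the median of these neighbours, and the share of neighbours with a smaller SD ranged from 0.571% (Ndufb3) to 66.9% (Ndufs8).

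**Figure D1:**
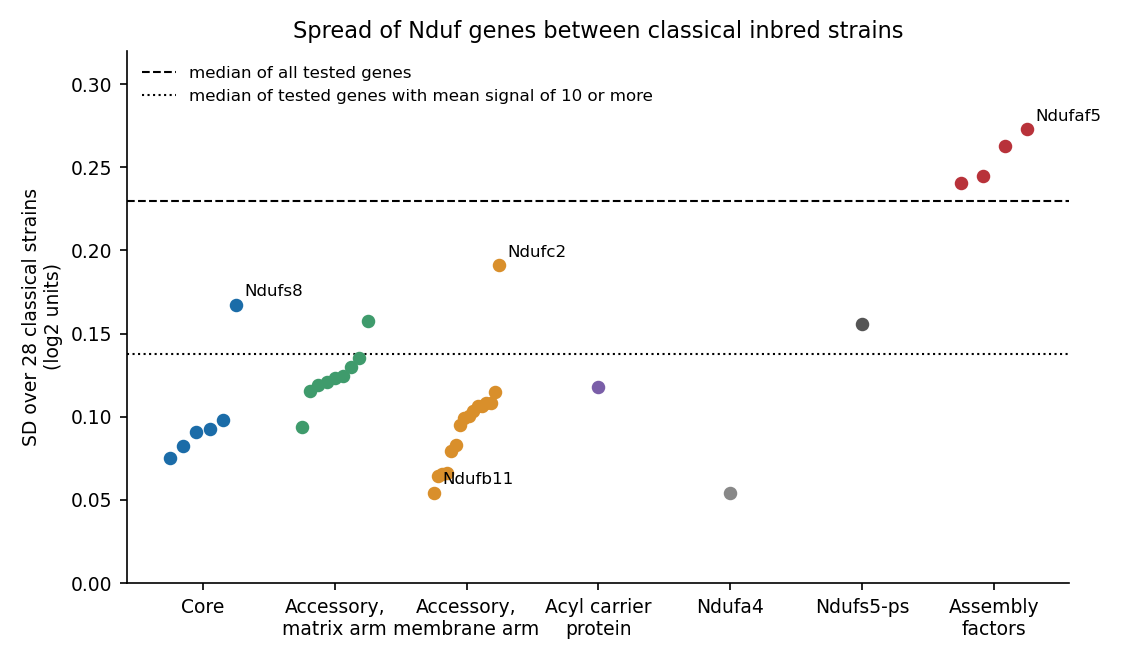
The SD over 28 classical strains (log2 units, vertical axis, from 0) is plotted for each of the 38 genes by role, 1 point per gene. The dashed line is the median of all tested genes (0.23) and the dotted line that of genes with a mean signal of 10 or more (0.14). All 33 subunits lie below the dashed line and the 4 assembly factors above it.

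The steadiest gene was Ndufb11, a membrane-arm subunit encoded on the X chromosome. Its signal ran from 12.12 in PL/J through a median of 12.22 to 12.36 in FVB/NJ, with an SD of 0.054. Ndufa4, which was named for complex I and is now assigned to cytochrome c oxidase, ran from 11.97 in KK/HlJ through 12.11 to 12.20 in MA/MyJ (SD 0.054). Ndufa8, a membrane-arm subunit with twin cysteine motifs, had an SD of 0.065, Ndufb9 one of 0.066 and Ndufa1, also X-linked, 0.066. For these 5 genes the highest classical strain was 1.17- to 1.27-fold above the lowest.

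Among the core subunits, Ndufs3 (SD 0.075), Ndufv2 (0.083), Ndufv1 (0.091), Ndufs7 (0.092) and Ndufs1 (0.098) were close together. Ndufv1 holds the NADH site, Ndufv2 an iron-sulphur cluster beside it, and Ndufs1 the next clusters of the chain. Ndufs8, which holds the clusters nearer to ubiquinone, varied most of the 6, from 10.93 in KK/HlJ through 11.41 to 11.63 in RIIIS/J (SD 0.17). The matrix-arm accessory subunits had a median SD of 0.12, from 0.094 for Ndufa12 to 0.16 for Ndufa6. The membrane-arm subunits had a median of 0.10, and Ndufc2 stood at their upper end.

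Ndufc2, a small membrane-arm subunit, had the largest SD of the subunits (0.19), which 30.2% of tested genes fell below. Its lowest value, 9.69 in LP/J, was also the lowest of all 99 arrays, and the second lowest classical strain stood at 10.17. The median classical strain had 10.39 and the highest, C57L/J, 10.62. LP/J had no organ list over the limit.

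The 4 assembly factors varied more than the subunits, with SDs of 0.24 to 0.27 and highest-to-lowest ratios of 1.91 to 2.43. Their share of tested genes with a smaller SD was 54.7% to 66.5%, and their probe sets are dimmer, with mean signals of 6.30 to 7.98. Against genes of like signal the share was 56.0% to 67.0%, so their SD was not unusual for their signal. Ndufaf5, which hydroxylates a core subunit during assembly, ran from 5.66 in LP/J through 6.34 to 6.78 in NZW/LacJ. Ndufaf4 ran from 7.27 in NZB/BlNJ through 7.60 to 8.20 in FVB/NJ, and its partner Ndufaf3 from 7.51 in LP/J through 7.99 to 8.79 in CBA/J. Ndufaf1, a factor for the membrane arm, ran from 6.87 in SWR/J through 7.41 to 7.83 in C57BL/6J. LP/J was the lowest classical strain for Ndufaf3 and Ndufaf5 and the second lowest for Ndufaf1 (7.04) and Ndufaf4 (7.37).

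Within panels the subunits had SDs close to those among classical strains, with a median of 0.099 in BXH, 0.095 in BXD and 0.090 in AXB and BXA. The medians over all tested genes were 0.22, 0.21 and 0.20 in the same order. Arrays of near-isogenic strains differed nearly as much, for these genes and for tested genes in general. The pooled SD within the AXB19 and BXD24 families (5 arrays) had a median of 0.093 over the subunits. It was 0.24 over the assembly factors and 0.20 over all tested genes. The AXB19/PgnJ array set much of that. Its Ndufaf5 value was 5.30, against 5.96 in AXB19a/PgnJ and 6.51 in AXB19b/PgnJ, and 26 of its 33 subunits lay below the classical mean, against 10 and 5 in the other two. Without the AXB19/PgnJ array the medians were 0.076, 0.13 and, over all tested genes, 0.15. AXB19/PgnJ and AXB19a/PgnJ carried markers of another organ and AXB19b/PgnJ did not, and their part in this was not tested.

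Across classical strains the subunits moved together weakly. KK/HlJ had the lowest median deviation from the classical mean, at -0.097, with 25 of 33 subunits below it and the lowest classical value of 5 of the 38 genes. By count it was not the lowest: BALB/cJ had 27 and 129X1/SvJ 26 of 33 subunits below the mean, and LP/J the lowest value of 8 genes. RIIIS/J had the highest median, at 0.093 with 3 of 33 below, followed by FVB/NJ at 0.087, which held the highest value of 8 genes, and MA/MyJ at 0.069. Bright genes in general deviated the same way by less, with medians of -0.024 in KK/HlJ, 0.043 in RIIIS/J, 0.034 in FVB/NJ and 0.024 in MA/MyJ. Genes of complexes II to V deviated by -0.070 in KK/HlJ, 0.057 in RIIIS/J, 0.028 in FVB/NJ and 0.056 in MA/MyJ. The assembly factors followed this order only in part. Their median had the sign of the subunits in RIIIS/J (0.28), MA/MyJ (0.13) and KK/HlJ (-0.036), but not in FVB/NJ (-0.14). It was lowest in LP/J (-0.45) and highest in NON/ShiLtJ (0.34).

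**Figure D2:**
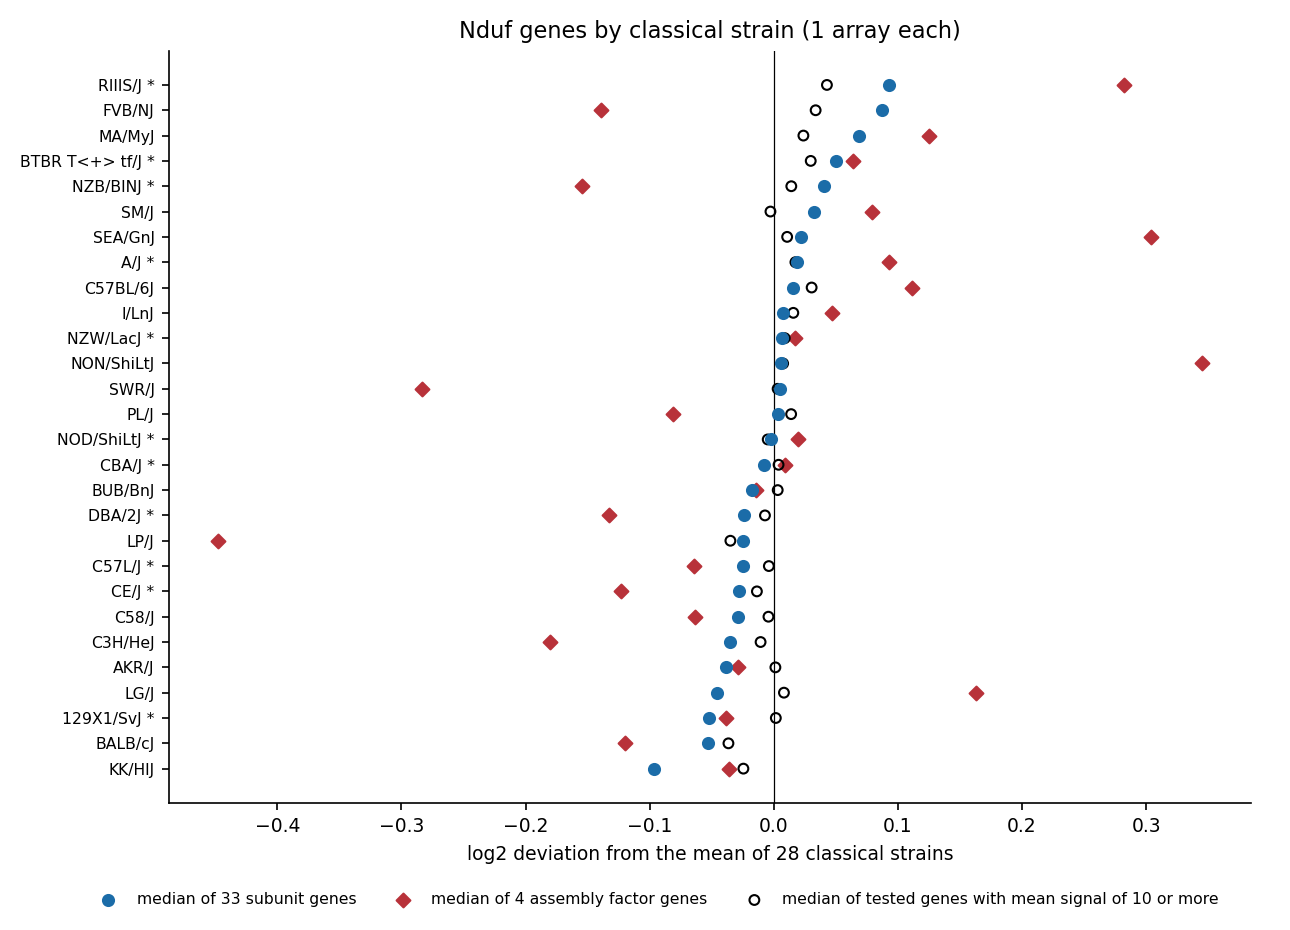
Each row is a classical strain (1 array), ordered by the median log2 deviation of 33 subunit genes from their means over the 28 strains (blue). Red diamonds are the median of the 4 assembly factors and open circles that of tested genes with a mean signal of 10 or more, and an asterisk marks an array with markers of another organ. The subunit medians span -0.097 to 0.093 and the assembly factor medians -0.45 to 0.34.

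Pairs of the 38 genes had a median Pearson r of 0.20 over the 28 classical strains, against 0.055 between an Nduf gene and another bright gene and 0.17 between an Nduf gene and a gene of complexes II to V. Over 55 families of BXD, AXB and BXA, centred by panel, the median was 0.21, against 0.082 and 0.17. All these points share the arrays and their normalisation, and the values are descriptions. Ndufv1 followed the others least, with r of 0.025 to the mean of the rest over classical strains and -0.19 over families, while Ndufv2, of the same arm, had 0.52 and 0.62. The 10 other genes most like the mean of the 38 over classical strains were Tmem147 (r = 0.73), Acp6 (0.68), Mtfp1 (0.66), Tmem126a (0.65), Mrpl24 (0.64), Lrrk2 (0.63), Aen (0.63), Glud1 (0.62), Mrpl21 (0.61) and 4833439L19Rik (0.61). Tmem126a is known in human cells as a complex I assembly factor, Mrpl24 and Mrpl21 encode mitochondrial ribosomal proteins, Glud1 is a mitochondrial glutamate dehydrogenase, and Mtfp1 acts in mitochondrial fission. The share of mitochondrial genes among the 10 was not set against that of all tested genes. Acp6 (mean signal 4.70) and Lrrk2 (4.28) are dim. None of the 10 was among the 10 genes of highest r over the 55 families. Over the 55 families the highest r was that of Cs, citrate synthase (0.79), a gene outside the naming rule that was chosen after its value was seen.

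BXD strains were set against AXB and BXA strains, whose arrays interleave in title number, to ask whether a different second parent goes with different complex I transcripts. In this comparison 4 of 38 genes were called by limma at an adjusted p under 0.05, 1 higher and 3 lower in BXD. Over all 7513 tested genes 8.59% were called higher and 6.04% lower, so the members were called at a rate near or below that of genes in general. Their median difference was -0.035, against 0.013 over all tested genes, and 25 of 38 lay below 0.

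Ndufa3, a small membrane-arm subunit, was higher in BXD. It ran from 12.35 through a median of 12.44 to 12.51 in BXD, against 12.16, 12.34 and 12.49 in AXB and BXA. The BXD families were close together (SD 0.043), and 15 of 26 AXB and BXA families lay below the lowest of them. The difference was 0.11 ± 0.02 (SE; 29 against 26 families; limma adjusted p = 0.000901), and a second probe set of the gene differed by 0.11 as well.

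Ndufs4, an accessory subunit whose loss in mice causes a fatal encephalomyopathy, was lower in BXD. It ran from 9.99 through 10.29 to 10.53 in BXD, against 10.10, 10.44 and 10.64 in AXB and BXA. The ranges overlap, with 25 of 29 BXD families below the AXB and BXA median. The difference was -0.14 ± 0.04 (limma adjusted p = 0.00507).

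Ndufs1, the largest core subunit, and Ndufa7, a matrix-arm accessory subunit, were lower in BXD by less. Ndufs1 ran from 11.27 through 11.55 to 11.70 in BXD, against 11.41, 11.62 and 11.70 in AXB and BXA, a difference of -0.081 ± 0.025 (limma adjusted p = 0.0188). Ndufa7 ran from 10.61 through 10.98 to 11.15 in BXD, against 10.91, 11.11 and 11.34 in AXB and BXA, a difference of -0.095 ± 0.029 (limma adjusted p = 0.0218). All 5 probe sets of Ndufa7 lay lower in BXD, by -0.079 to -0.33.

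The arrays of the parents, which were not in this fit, lay the same way for all 4 called genes. DBA/2J minus A/J was 0.15 for Ndufa3, -0.19 for Ndufs4, -0.092 for Ndufs1 and -0.028 for Ndufa7. Over all 1099 called genes the sign matched in 88.1%.

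Other respiratory genes called in the same comparison were few. Of 11 other assembly factors Acad9 was higher (0.21) and Tmem186 lower (-0.21) in BXD. Lower in BXD were Sdhb of complex II (-0.058, 1 of 4), Cox5a of complex IV (-0.074, 1 of 11) and Atp5g1 of complex V (-0.071, 1 of 14), and 0 of 8 complex III genes were called (7 of 8 below 0). Of complexes II, IV and V, 4 of 4, 8 of 11 and 13 of 14 genes lay below 0, against 44.5% of all tested genes. Of 11 regulators of mitochondrial biogenesis Ppara was higher (0.31) and Tfb2m, a mitochondrial transcription factor, lower (-0.18) in BXD. In this comparison 5 of 8 endothelial markers were also higher in BXD (differences of 0.18 to 0.35), while 1 of 8 cardiomyocyte markers (Pln, -0.096) and 1 of 8 skeletal muscle markers (Myl1, -1.08) were lower. Their part in the Nduf differences was not tested.

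These calls moved with the settings for RNA quality, organ markers and probe sets. With the Gapdh difference as a covariate Ndufa3 kept its call (0.11, limma adjusted p = 0.00749), Ndufs4, Ndufs1 and Ndufa7 did not (-0.098, -0.051 and -0.060), and Ndufaf5 was called higher (0.26). Calls over all tested genes fell as well, from 1099 to 405 with this covariate. When arrays that carry another organ's markers were left out (18 against 15 families), no member was called by limma and 7 had an unadjusted p under 0.05. Over all 7513 tested genes 460 were then called and 1701 had an unadjusted p under 0.05. The differences were 0.10, -0.098, -0.10 and -0.070 for Ndufa3, Ndufs4, Ndufs1 and Ndufa7. Within the lower title numbers (16 against 13) these differences were 0.16, -0.13, -0.11 and -0.10, and within the upper (14 against 14) 0.069, -0.15, -0.055 and -0.073. In the upper numbers 0 members were called by limma and 2 had an unadjusted p under 0.05, against 170 and 1151 of all tested genes. In the lower numbers 512 of all tested genes were called. Of the 4, Ndufa3 alone was called in the lower numbers. Ndufs4 also lost its call with the mean of its probe sets, the second of which is dim (mean signal 4.48).

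**Figure D3:**
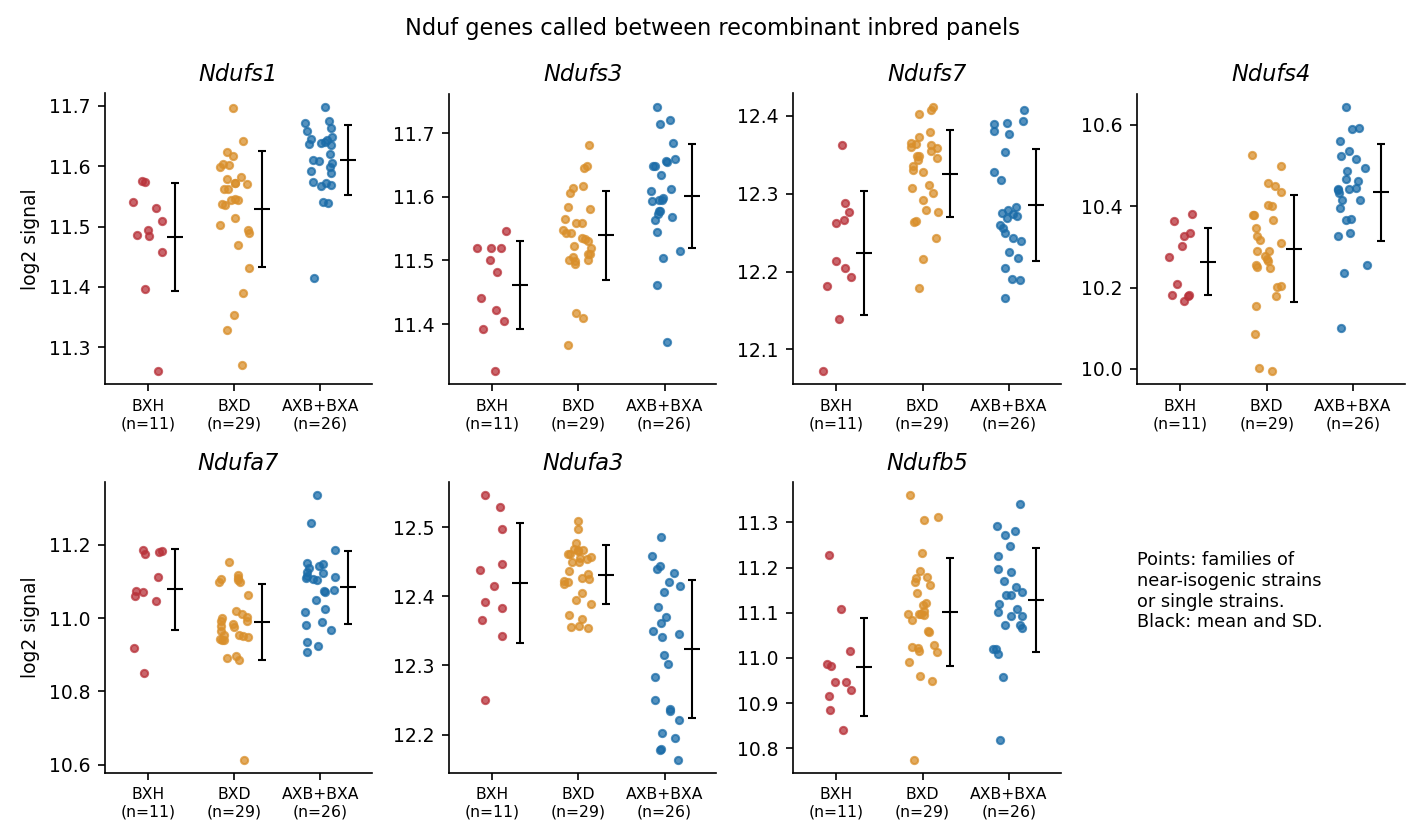
The 7 genes called in a comparison of panels are shown by family (points), with the log2 signal on each vertical axis, which does not start at 0, and the mean and SD in black. Ndufa3 is narrow in BXD, and 15 of 26 AXB and BXA families lie below its lowest BXD family. The panels overlap for all 7 genes.

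BXH strains were set against AXB and BXA strains, BXD strains and classical strains. Against AXB and BXA, 4 of 38 genes were called, 0 higher and 4 lower in BXH, where 3.18% of all tested genes were called higher and 3.34% lower. The members' median difference was -0.074, against -0.008 over all tested genes, and 36 of 38 lay below 0, the exceptions being Ndufa3 (0.095, limma adjusted p = 0.143) and Ndufb10 (0.036, adjusted p = 0.744). The title numbers of BXH (3 to 394) and of AXB and BXA (481 to 683) do not overlap, so order of processing, if the titles follow it, and panel cannot be told apart. Their age labels do not overlap either, so age, if the labels hold, and panel cannot be told apart.

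Ndufs3, a core subunit on the path to ubiquinone, ran from 11.33 through 11.48 to 11.55 in BXH, against 11.37, 11.60 and 11.74 in AXB and BXA. All 11 BXH strains lay below the AXB and BXA median, and the difference was -0.14 ± 0.03 (SE; 11 against 26; limma adjusted p = 0.00842). Ndufs1 ran from 11.26 through 11.49 to 11.58 in BXH, against 11.41, 11.62 and 11.70 in AXB and BXA, a difference of -0.13 ± 0.03 (limma adjusted p = 0.00919). Again all 11 BXH strains were below the other median.

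Ndufs4 ran from 10.17 through 10.28 to 10.38 in BXH, against 10.10, 10.44 and 10.64 in AXB and BXA, a difference of -0.17 ± 0.04 (limma adjusted p = 0.0122). Ndufb5, a membrane-arm accessory subunit, ran from 10.84 through 10.95 to 11.23 in BXH, against 10.82, 11.13 and 11.34 in AXB and BXA, a difference of -0.15 ± 0.04 (limma adjusted p = 0.0319). The second probe sets of Ndufs4 and Ndufb5 lay lower in BXH as well, by -0.27 and -0.13, but on the probe set of largest variance neither gene was called. Ndufb5 lost its call when any 1 of 6 BXH strains was left out (BXH4/TyJ, BXH6/TyJ, BXH8/TyJ, BXH19/TyJ, BXH20/KccJ or BXH22/KccJ; adjusted p up to 0.0763). It also lost the call when all arrays were taken as separate samples.

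For these 4 genes C3H/HeJ also lay below A/J, by -0.17 for Ndufs3, -0.26 for Ndufs1, -0.24 for Ndufs4 and -0.10 for Ndufb5, where the sign matched in 83.7% of all 490 called genes. Among related lists Timmdc1, a complex I assembly factor, was lower in BXH (-0.24, 1 of 11), as was Uqcrc1 of complex III (-0.11, 1 of 8), and no gene of complexes II, IV and V was called by limma. Below 0 lay 4 of 4 genes of complex II, 7 of 8 of complex III, 8 of 11 of complex IV and 12 of 14 of complex V. The share below 0 over all tested genes was 53.4%. In the same comparison 6 of 7 macrophage markers were higher in BXH (0.33 to 0.79), as were 3 of 5 airway markers (3.53 to 4.13), and Ryr2 of the 8 cardiomyocyte markers was lower (-0.19). Leaving out arrays that carry another organ's markers kept 3 BXH strains against 15 families. No member was then called by limma and 5 had an unadjusted p under 0.05, against 17 and 717 of all 7513 tested genes. The 4 differences were -0.11 (Ndufs3), -0.082 (Ndufs1), -0.16 (Ndufs4) and -0.18 (Ndufb5).

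Against BXD, 1 of 38 genes was called, 0 higher and 1 lower in BXH, where 4.3% of all tested genes were called higher and 6.34% lower. The title numbers of BXH (3 to 394) and BXD (473 to 670) do not overlap either. Nor do their age labels, so the same limits hold. Ndufs7, the core subunit that holds the last iron-sulphur cluster before ubiquinone, ran from 12.07 through 12.21 to 12.36 in BXH, against 12.18, 12.34 and 12.41 in BXD. The difference was -0.10 ± 0.03 (11 against 29; limma adjusted p = 0.0197), and its second probe set differed by -0.040. C3H/HeJ lay 0.17 below DBA/2J. The call was lost without BXH4/TyJ (adjusted p = 0.0591) and with the Gapdh covariate (-0.077, adjusted p = 0.113). It was also lost among the 3 BXH and 18 BXD families whose arrays lack markers of other organs (-0.10, adjusted p = 0.362). There limma called 0 members and 5 had an unadjusted p under 0.05, against 80 and 1108 of all 7513 tested genes. All 7 macrophage markers and 4 of 5 airway markers were higher in BXH in this comparison too, as were Myl1 (0.91, 1 of 8 skeletal muscle markers) and Alas2 (0.90, 1 of 3 erythroid markers). Of 8 endothelial markers Flt1 (-0.50) and Emcn (-0.26) were lower, with all 8 below 0. The part of these markers was not tested. Of the related lists, Ecsit, an assembly factor (-0.18), and Uqcrc1 (-0.097) were lower in BXH, and Cox8a of complex IV (0.23) and Atp5g2 of complex V (0.13) were higher, while Ppara was lower (-0.68).

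Against the classical strains limma called 0 members and 0.293% of all tested genes. An unadjusted p under 0.05 was reached by 6 of 38 members and by 849 of all 7513 tested genes. Among the 6 members the largest difference was that of Ndufaf1, at 0.19 (limma adjusted p = 0.327). AXB against BXA, reciprocal crosses of the same parents, gave 0 called members and 0% called over all tested genes by limma, with 4 members and 786 genes at an unadjusted p under 0.05. The 4 were Ndufaf3 (-0.17), Ndufaf1 (-0.21), Ndufa11 (-0.089) and Ndufc1 (-0.075), each lying lower in AXB, with limma adjusted p of 0.297 to 0.474. The comparisons of BXH share its 11 strains, and those against AXB and BXA share 26 families.

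Where a gene had several probe sets, panel differences this small depended on the probe set. Of 18 such genes the sign of BXD minus AXB and BXA differed between probe sets for 7 (Ndufa5, Ndufa12, Ndufab1, Ndufb7, Ndufb11, Ndufs7 and Ndufs8), and that of BXH minus AXB and BXA for 4 (Ndufa7, Ndufa12, Ndufb2 and Ndufb11). For BXH minus BXD it differed for 6 (Ndufa12, Ndufab1, Ndufaf4, Ndufb7, Ndufb11 and Ndufv1) and for AXB minus BXA for 9 (Ndufa3, Ndufa10, Ndufa12, Ndufab1, Ndufb4, Ndufb5, Ndufb11, Ndufc1 and Ndufv1). For CAST/EiJ against the classical mean it differed for 6 (Ndufa7, Ndufa12, Ndufb11, Ndufs4, Ndufs8 and Ndufv2). Of the called genes, Ndufs1 and Ndufs3 have only 1 probe set each. None of the other called genes had probe sets of opposite sign in the comparison that called it. Elsewhere they could: Ndufs7 differed by 0.040 and -0.014 for BXD minus AXB and BXA. The brightest probe sets of Ndufa3 and Ndufa7 end in _x_at, the array's mark for probes that may match several transcripts, and those of Ndufa2, Ndufa12, Ndufab1 and Ndufs5-ps in _s_at, its mark for probes shared between transcripts. Ndufs5-ps may be read together with its parent gene, and the values of all 6 are uncertain to that extent.

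Dimmer probe sets showed a single low strain or a wider spread that the brightest did not. The second probe set of Ndufc1, a membrane-arm subunit, read 7.25 in SWR/J, while the next classical strain stood at 9.06. On the brightest probe set SWR/J read 11.18, above the median of 11.10. The second probe set of Ndufa10 had an SD of 0.42, against 0.11 for the brightest, with its lowest classical strains at 5.94 and 6.03.

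Of the parents, only Ndufaf1 differed from C57BL/6J by 0.5 log2 units or more. It read 7.13 in DBA/2J and 7.12 in C3H/HeJ, against 7.83 in C57BL/6J, differences of -0.71 and -0.71, and 7.44 in A/J (-0.39). The share of all tested genes past this size was 22.2% for DBA/2J, 13.4% for A/J and 22% for C3H/HeJ, so for the 38 genes the counts of 1, 0 and 1 were below the background. The typical size of a difference was 0.12 for DBA/2J, 0.086 for A/J and 0.13 for C3H/HeJ over the members, against 0.26, 0.19 and 0.26 over all genes. These are single arrays, with no test.

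Ndufaf1 had panel values between and beyond those of the parents, and whether they form groups was not tested. In BXH it ran from 7.25 through 7.59 to 7.91, with 9 of 11 strains above the parental midpoint of 7.48. In BXD it ran from 7.12 through 7.62 to 8.16, with 23 of 29 families above the midpoint of 7.48 and 11 above both parents. In AXB and BXA it ran from 7.34 through 7.68 to 8.28.

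CAST/EiJ was read on 1 array. It lay below the lowest of the 28 classical strains for 12 of 38 genes and above the highest for 0, where 16.9% of all tested genes lay below and 10.6% above. Among the 427 genes with a mean signal of 10 or more the shares were 25.5% and 8.20%. The median difference from the classical mean was -0.13 over the members, against -0.081 over all tested genes, and 31 of 38 members lay below that mean. The array read liver and skeletal muscle markers far above the classical strains, with Alb at 13.1, against a classical median of 3.58, and Tnnc2 at 12.0, against 3.29. The liver list had a median difference of 7.34, the skeletal muscle list of 7.12 and the airway list of 4.64, with no airway marker above the classical range. Below the range lay 3 of 4 fibroblast markers (median difference -0.89) and 3 of 8 cardiomyocyte markers (-0.15). The part of RNA from other organs in the lower Nduf signals was not tested.

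Ndufa5, an accessory subunit of the matrix arm, stood apart from the rest. Its brightest probe set read 8.04 in CAST/EiJ, against 11.34, 11.54 and 11.82 as the lowest, median and highest classical strain, a difference of -3.52 from the classical mean, or 11.5-fold. The other 98 arrays all read 11.34 or more. The second probe set of the same gene read 9.80 in CAST/EiJ, within the classical range of 9.68 to 10.20, a difference of -0.14. Only 1 of the 2 probe sets thus read outside the classical range.

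**Figure D4:**
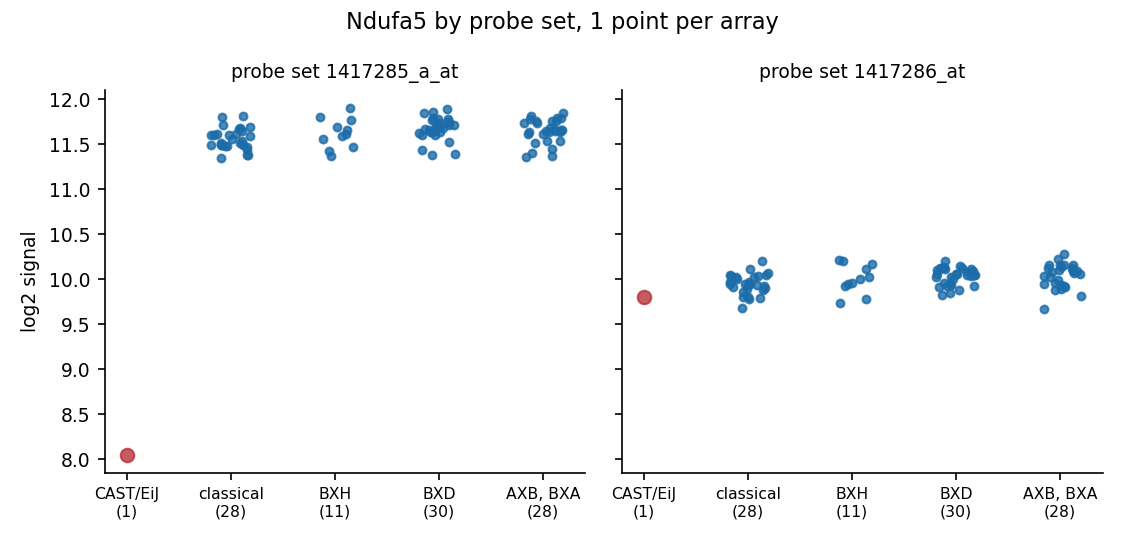
Log2 signals of the 2 Ndufa5 probe sets are shown with 1 point per array, CAST/EiJ (red) left of the classical strains and the panels (blue), on an axis that does not start at 0. The brightest probe set reads 8.04 in CAST/EiJ and at least 11.34 elsewhere, while the second reads 9.80 in CAST/EiJ, inside the classical range.

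The next 4 genes by distance below the classical range were Ndufs5-ps (9.27 in CAST/EiJ, against a lowest classical value of 9.69), Ndufv3 (10.95, against 11.29), Ndufv1 (11.13, against 11.35) and Ndufb3 (10.37, against 10.56). Ndufv1 and Ndufv3 belong with Ndufv2 to the NADH-binding module, and the probe sets of Ndufv2 differed: the brightest lay 0.072 above the classical mean, and the second read 11.33 in CAST/EiJ, below the lowest classical value of 11.40. Ndufa2, Ndufaf4, Ndufa1, Ndufb5, Ndufa6, Ndufa8 and Ndufa12 were also below the range, by 0.13 to 0.0038. By role these 12 were 1 of 6 core subunits, 5 of 9 matrix-arm and 4 of 16 membrane-arm accessory subunits, 1 of 4 assembly factors and Ndufs5-ps. In the other complexes 0 of 4 genes of complex II, 1 of 8 of complex III, 2 of 11 of complex IV and 4 of 14 of complex V lay below the range, and 0, 2, 2 and 1 lay above it. The members nearest to the limit were Ndufa12, 0.0038 below the lowest classical strain, and Ndufa11, 0.0060 above it. Second probe sets of Ndufv1, Ndufb5 and Ndufaf4 read 11.17, 10.76 and 5.17 in CAST/EiJ. All lay within their classical ranges, whose lowest values were 10.99, 10.58 and 5.04. For Ndufa12 another probe set read 10.31, within the range, and a dim one 3.19, below the lowest classical value of 3.21. The second probe set of Ndufa3, whose brightest lay within the range, read 11.87, below its lowest classical value of 11.91.

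**Figure D5:**
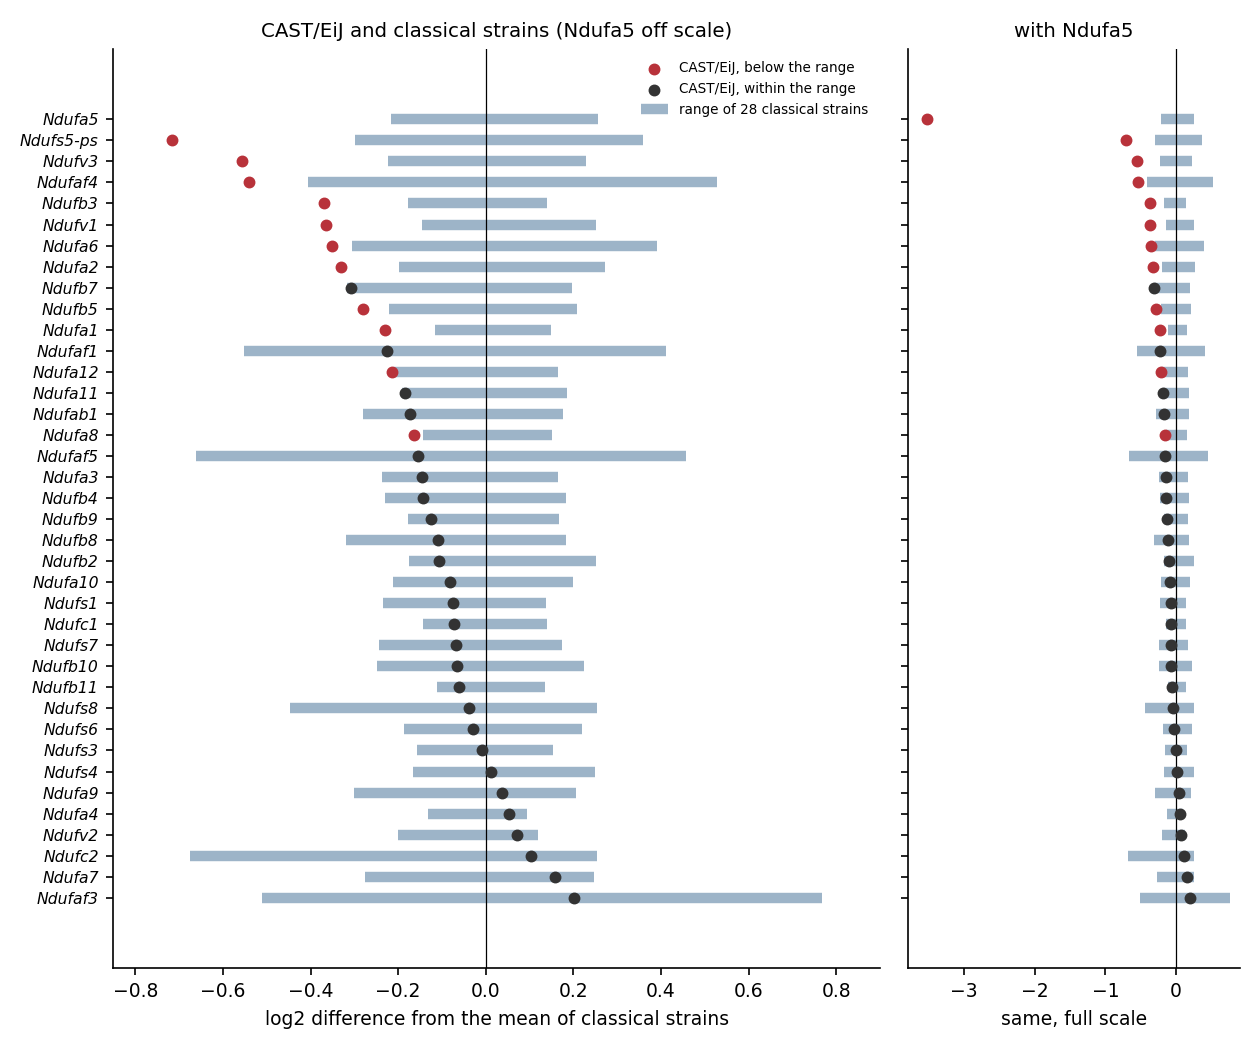
For each gene the blue bar is the range of 28 classical strains and the point is CAST/EiJ, as the log2 difference from the classical mean (horizontal axis, with the full scale on the right for Ndufa5). Red points lie below the range, for 12 of 38 genes, and no point lies above it.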

How the data were processed

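The values are log2 signals of 22416 probe sets, deposited by the authors for 99 arrays. GCOS and RMA are named per the submitters' processing notes; RMA includes a quantile normalisation, which evens out array-wide differences. Per the labels, RNA was primed with oligo-dT. Scanner files were not analysed here, so the number of arrays sets the precision. The platform annotation names 17783 probe sets with 1 gene symbol. A gene was tested if its mean exceeded 3.59, the 40th percentile over probe sets. The label age runs from 16 to 113 weeks where the protocol gives 16, so it was not used. Groups were compared with limma 3.58.1 (lmFit, eBayes; R 4.3.3), with Benjamini-Hochberg adjustment over all tested genes, after a test on simulated data. Python 3.11.15 did the rest. The members and lists were chosen with earlier results of these data known. Named with values were called members, the 5 largest and 5 smallest SDs, parental differences of at least 0.5, up to 5 members per side for CAST/EiJ, probe sets of opposite sign, called members of the lists and the 10 most like genes, and others were chosen after their values were seen. Alternatives changed the filter, probe sets, normalisation, covariates and arrays.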

Additional observations from a re-analysis of the deposited data

Results flagged for a closer look

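Ndufaf1 read 7.93 in B6cC3-1/KccJ, a strain that entered no comparison, above the highest of the 28 classical strains, C57BL/6J at 7.83. It was 1 of 38 members above the classical range in this strain, with 0 below, where 2.12% of all tested genes lay above and 2.26% below. The array carried no organ list over the limit. It is a single array, and 6 of 26 AXB and BXA families lay above C57BL/6J as well.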

How the results depend on the processing

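The number of Nduf genes called between BXD and AXB with BXA was 4, and became 7 with trend and robust eBayes, 2 with the Gapdh and 2 with the Actin covariate, 0 without arrays with markers of another organ, and 1 and 0 in the lower and upper title numbers. Over all tested genes the count was 1099, and became 1097, 405, 567, 460, 512 and 170 in the same order. Leaving out each of 55 families gave 4 to 7 members, the 7 without BXD11/TyJ, and 989 to 1242 genes in all. For BXH against AXB and BXA the count of 4 became 7 with the mean of probe sets and 8 with trend and robust eBayes. It became 0 without arrays with markers of another organ. Over all tested genes 490 became 497, 522 and 17 in the same order. Leave-one-out gave 3 to 6 members and 369 to 572 genes in all. For BXH against BXD the count of 1 became 4 with the mean of probe sets, 3 with the probe set of largest variance, trend and robust eBayes or a repeated quantile normalisation, 2 above the 60th percentile, with arrays centred or with all arrays separate, and 0 with the Gapdh covariate or without arrays with markers of another organ. Over all tested genes 799 became 735, 837, 802, 771, 684, 824, 837, 513 and 80 in the same order. Leave-one-out gave 0 to 4 members and 564 to 938 genes in all. The members called were 0 without BXH4/TyJ, and 2 to 4 without BXH7/TyJ, BXH8/TyJ, BXH9/TyJ, BXH20/KccJ, BXD2/TyJ, BXD11/TyJ, BXD13/TyJ, BXD18/TyJ, BXD20/TyJ or BXD27/TyJ. The cause was not tested. Settings that leave out arrays also have fewer samples. The counts of AXB against BXA and BXH against classical strains stayed at 0 under every alternative run, leave-one-out included. Over all tested genes the first also stayed at 0. The second ran from 0 to 32, and from 3 to 51 on leave-one-out. Both parental differences of Ndufaf1 fell short of a threshold of 1 log2 unit (0 genes). Over the 9 calls, each refitted under 11 or 13 settings other than leave-one-out, 107 values resulted, of which 0 changed direction and 80 kept the call. The 12 genes below the classical range in CAST/EiJ became 11 to 14, the 14 against the 17 strains without markers of another organ, an alternative chosen after seeing the data. Over the same 17 strains, also chosen after seeing the data, Acp6 had the highest r with the mean of the 38 genes (0.904), and Tmem147 (0.685) and Glud1 (0.512) ranked 20 and 189. No paired analysis was possible because the labels give no shared replicate numbers.

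With 1 array per strain, a p that misses the threshold does not show that panels had equal levels. Dim probe sets have signals close to the background.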
